A study of Arabidopsis thaliana with 8 samples.

Results

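The AP2/ERF genes outside group VII are transcription factors that carry the AP2/ERF DNA-binding domain but do not belong to the oxygen-regulated group of HRE1. They were chosen by name from the gene rows of the count tables. The names beginning with ERF, RAP2, DREB, CBF or CRF followed by a number were taken, and ERF73 (HRE1), ERF71 (HRE2), RAP2.2 and RAP2.12 were left out. This gave 50 genes of the 33028 rows in each table. RAP2.3 was not matched under that name, and Rap2.6L was missed by the letter case of the rule and is not counted among the members. The rule used no measured value, but the members were chosen with earlier results of these data known.

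Transcripts of Arabidopsis thaliana seedlings (Columbia ecotype) were counted at their 3′ ends by QuantSeq in 4 groups of 2 libraries. These were HRE1α OX, HRE1β OX and AtRH17 OX, which are labelled as overexpressors of HRE1 splice variant α, HRE1 splice variant β and the DEAD-box RNA helicase AtRH17, and WT without a transgene. All 4 groups were grown without stress treatment on agar plates at 22 °C in short days (8 h light, 16 h dark), and the labels give an age of 14 days for all of them. The promoter driving the transgenes and the number of independent lines behind each group are not given in the sources used here, and nothing states that the 2 libraries of a group came from separate cultures. The p-values therefore measure the spread between these libraries, which may be technical. Genes with at least 20 counts over the 2 libraries of a group were compared between them by a chi-square test of counting error. A p below 0.05 was reached by 44.1% of them in WT and 31.7% in HRE1α OX. The share was 34.4% in HRE1β OX and 35.1% in AtRH17 OX. WT, the shared reference of the comparisons with WT, thus had the largest share.

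The targeted genes were examined as a check of the labels. HRE1 (ERF73, AT1G72360) reached 169 and 194 CPM in HRE1α OXs, where CPM is the count scaled to library depth. It stood at 33.8 and 34.2 CPM with the label HRE1β OX, at 43.4 and 35.7 CPM with the label AtRH17 OX, and at 49.8 and 38.1 CPM in WT. HRE1 was higher in HRE1α OXs than in WT (log2 fold change 2.05 ± 0.12 SE, edgeR quasi-likelihood adjusted p = 2.06e-10), and lower with the label HRE1β OX (-0.37 ± 0.12, adjusted p = 0.0263). The paper states that both variants share the C-terminal region, so a 3′ count of HRE1 cannot tell variant α from variant β. AtRH17 (AT2G40700) had 5.07 and 5.04 CPM in the libraries labelled AtRH17 OX, below the 9.20 and 8.27 CPM of WT (-0.79 ± 0.18, adjusted p = 0.00121). A count taken at the 3′ end may not register a transgene that lacks the end of the native transcript. The 3′ ends of the constructs are not given in the sources used here, and this was not tested. The counts showed no rise of HRE1 in the HRE1β OX libraries or of AtRH17 in the AtRH17 OX libraries. They cannot show whether such a transgene was expressed, so the labels of these 2 groups could not be checked here. The methods of the study describe the HRE1β construct as made from the full-length open reading frame. The 2 groups are therefore called labelled HRE1β OXs and labelled AtRH17 OXs, and each direction given for them is that of the libraries so labelled.

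AP2/ERF factors bind short sequences in the promoters of other genes. The ERF branch mainly recognises the GCC box and relays ethylene, jasmonate and wound signals, with activators in group IX and repressors that carry an EAR motif. The DREB branch, with the CBF (DREB1) and DREB2 factors, recognises the DRE/CRT element in cold, drought and salt responses. The cytokinin response factors (CRFs) form a further ERF subgroup, several of which are induced by cytokinin and act in leaf, root and embryo development.

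The members themselves may carry such elements. The 250 bases before the annotated start of each gene were searched on both strands for 4 motifs. The letters GCCGCC stood for the GCC box core. The DRE/CRT was taken as ACCGAC, or with its first base changed as GCCGAC. The rapid stress response element was read as CGCGTT, and the G-box as CACGTG. Sites of the GCC core and of the DRE/CRT can share bases, but no member held both. The GCC core was present in 3 of the 50 members (6.0%) and in 1.87% of 27443 genes of the genome. DRE/CRT was present in 7 members (14.0%, against 7.09% of all genes), the rapid stress response element in 2 members (4.0%, against 2.59%), and the G-box in 11 members (22.0%, against 6.49%). A match is a description of the letters in this window and was not tied to binding. The 3 members with a GCC core are CRF6, ERF11 and ERF15. Their windows are shown with motifs in capitals, 5′ to 3′ on the strand of the gene, because the GCC box is the element the ERF branch is best known for. The window of CRF6 covers chr3:22804748-22804997 on the forward strand, and the shorter stretches around the GCC core of ERF11 and ERF15 cover chr1:9956981-9957080 and chr2:13307723-13307822 on the reverse strand (TAIR10.1 genome).
CRF6: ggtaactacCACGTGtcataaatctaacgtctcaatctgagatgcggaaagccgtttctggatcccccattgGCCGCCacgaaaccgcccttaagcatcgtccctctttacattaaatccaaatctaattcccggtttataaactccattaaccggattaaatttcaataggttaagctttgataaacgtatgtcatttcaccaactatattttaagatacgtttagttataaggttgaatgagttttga
ERF11: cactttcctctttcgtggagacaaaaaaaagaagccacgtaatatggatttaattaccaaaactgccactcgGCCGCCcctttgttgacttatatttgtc
ERF15: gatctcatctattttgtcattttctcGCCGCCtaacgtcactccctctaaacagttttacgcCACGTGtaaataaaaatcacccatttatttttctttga

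The upstream windows of ERF5 and ERF2 are shown because these are neighbouring genes with opposite changes in labelled AtRH17 OXs. ERF5 (forward strand, chr5:19179631-19179880) holds a DRE/CRT on the opposite strand, whose first base lies 106 bases before the start, and ERF2 (reverse strand, chr5:19172957-19173206) holds a G-box 39 bases before the start.
ERF5: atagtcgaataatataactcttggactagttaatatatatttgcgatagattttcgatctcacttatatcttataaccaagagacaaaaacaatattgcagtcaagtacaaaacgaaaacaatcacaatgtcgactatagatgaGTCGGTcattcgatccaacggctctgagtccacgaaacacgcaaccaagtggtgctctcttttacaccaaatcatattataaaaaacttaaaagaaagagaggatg
ERF2: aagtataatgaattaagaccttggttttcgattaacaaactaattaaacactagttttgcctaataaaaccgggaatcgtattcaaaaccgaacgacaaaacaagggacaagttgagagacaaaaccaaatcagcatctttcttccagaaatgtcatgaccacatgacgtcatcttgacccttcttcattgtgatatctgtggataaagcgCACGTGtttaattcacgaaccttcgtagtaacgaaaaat

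Depth was similar among the libraries. Total counts lay between 25657217 and 30606058 per library, so that 3 counts, taken here as the floor of detection, corresponded to 0.098 to 0.117 CPM. The 50 members took 0.0457 to 0.0673% of the counts of a library, and 41 to 47 of them had at least 1 count. The labelled tissue was examined with marker genes. The summed seed markers reached 85.7 and 26.8 CPM in the 2 HRE1β OX libraries and 0.3 to 0.8 CPM in the other 6, and all 5 tested seed markers were called higher in labelled HRE1β OXs than in WT. Of the 3 green tissue markers, 2 were called higher in HRE1α OXs, and all 3 in labelled HRE1β OXs and in labelled AtRH17 OXs, by log2 fold changes of 0.25 to 0.57. Of 6 tested root markers, 1, 1 and 2 were called lower in HRE1α OXs, labelled HRE1β OXs and labelled AtRH17 OXs, and 1 was called higher in labelled AtRH17 OXs. Among all genes tested, 1.57%, 11.2% and 15.3% were higher and 1.8%, 11.6% and 15.5% lower in the same order. In labelled AtRH17 OXs, 1 root marker called lower and the 1 called higher passed 2-fold. The log2 fold changes of the 6 root markers lay between -1.35 and 1.16 there. Neither of the 2 tested flower markers was called against WT, and 1 of them, PI, was higher in labelled AtRH17 OXs than in HRE1α OXs (log2 fold change 1.24). The part of these marker differences in the results below was not tested, and in whole seedlings fewer cells of a type and less RNA per cell cannot be told apart.

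Of the 50 members, 42 passed the count filter and were tested. CBF1, CBF4, CRF9, DREB2C, ERF14 and ERF53 had at most 12 counts in any library and were not tested. ERF110 and ERF115 had no count in any library, which allows a level of up to 0.117 CPM in the shallowest library. A total of 30 members passed an adjusted p of 0.05 in at least 1 of the 6 comparisons among the groups, and 12 tested members passed in none, with a lowest adjusted p of 0.0732. The 3 comparisons with WT share the same WT libraries.

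More AP2/ERF members were called lower than higher against WT in labelled HRE1β OXs and labelled AtRH17 OXs. In HRE1α OXs, 3 members were higher and 3 lower among the 42 tested (7.14% each), where 1.57% of all 22602 genes tested were higher and 1.8% lower. In labelled HRE1β OXs, 2 members were higher (4.76%, against 11.2% of all genes) and 10 lower (23.8%, against 11.6%). In labelled AtRH17 OXs, 4 members were higher (9.52%, against 15.3% of all genes) and 17 lower (40.5%, against 15.5%). The median log2 fold change of the tested members was -0.03 in HRE1α OXs, -0.24 in labelled HRE1β OXs and -0.41 in labelled AtRH17 OXs, and that of all genes tested was -0.01, 0.00 and -0.01 in the same order. Between the lines, labelled HRE1β OXs against HRE1α OXs gave 0 members higher and 7 lower (background 8.86% and 7.87%), where 1 member was higher at an unadjusted p below 0.05 and DESeq2 also called 0. Labelled AtRH17 OXs against HRE1α OXs gave 3 higher and 9 lower (background 13.4% and 12.4%). Labelled AtRH17 OXs against labelled HRE1β OXs gave 1 higher and 6 lower (background 7.42% and 6.45%). These shares are descriptions, since the list as a whole was not tested. Single libraries moved several of these counts by over 1.5 times. Against WT, HRE1α OXs had 5 members higher without WT library 2, 1 higher without HRE1α OX library 2, and 1 lower without either HRE1α OX library. Labelled HRE1β OXs had 1 member higher without WT library 1 and 0 without HRE1β OX library 2. Labelled AtRH17 OXs had 11 members lower without WT library 2, and 11 lower and 2 higher without AtRH17 OX library 2. Between labelled HRE1β OXs and HRE1α OXs, 3 members were lower without HRE1α OX library 1 (with 1 higher), 2 without HRE1α OX library 2 and 3 without HRE1β OX library 1. Between labelled AtRH17 OXs and HRE1α OXs, 1 member was higher without either HRE1α OX library or AtRH17 OX library 2. Between labelled AtRH17 OXs and labelled HRE1β OXs, 1 member was lower without HRE1β OX library 2 and 3 without AtRH17 OX library 2, with 0 higher in both fits, and 2 were higher without either WT library.

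**Figure D1:**
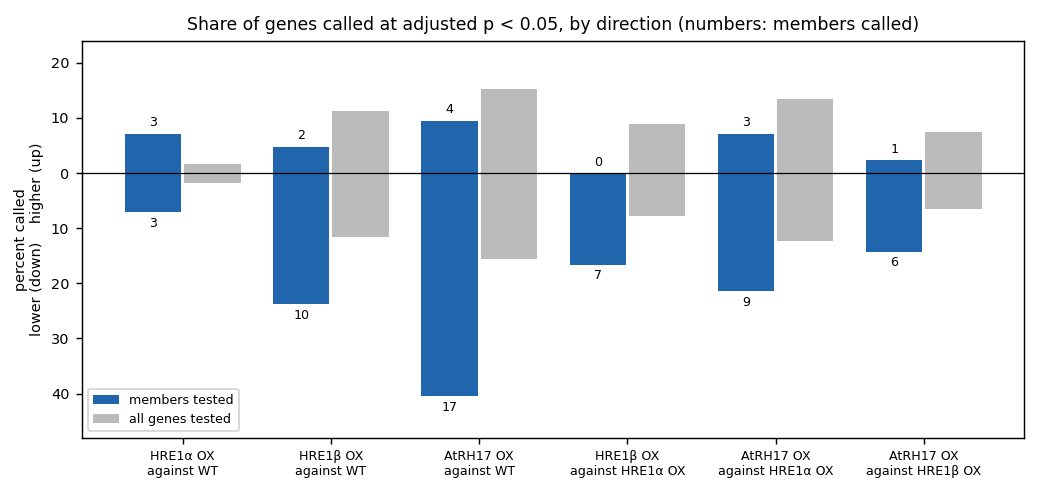
Percent of genes called at an adjusted p of 0.05 in each of the 6 comparisons, higher upwards and lower downwards, for the 42 tested members (blue, with the number called) and for all 22602 genes tested (grey). Members called lower reached 40.5% in labelled AtRH17 OXs against WT, where 15.5% of all genes were called lower.

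**Figure D2:**
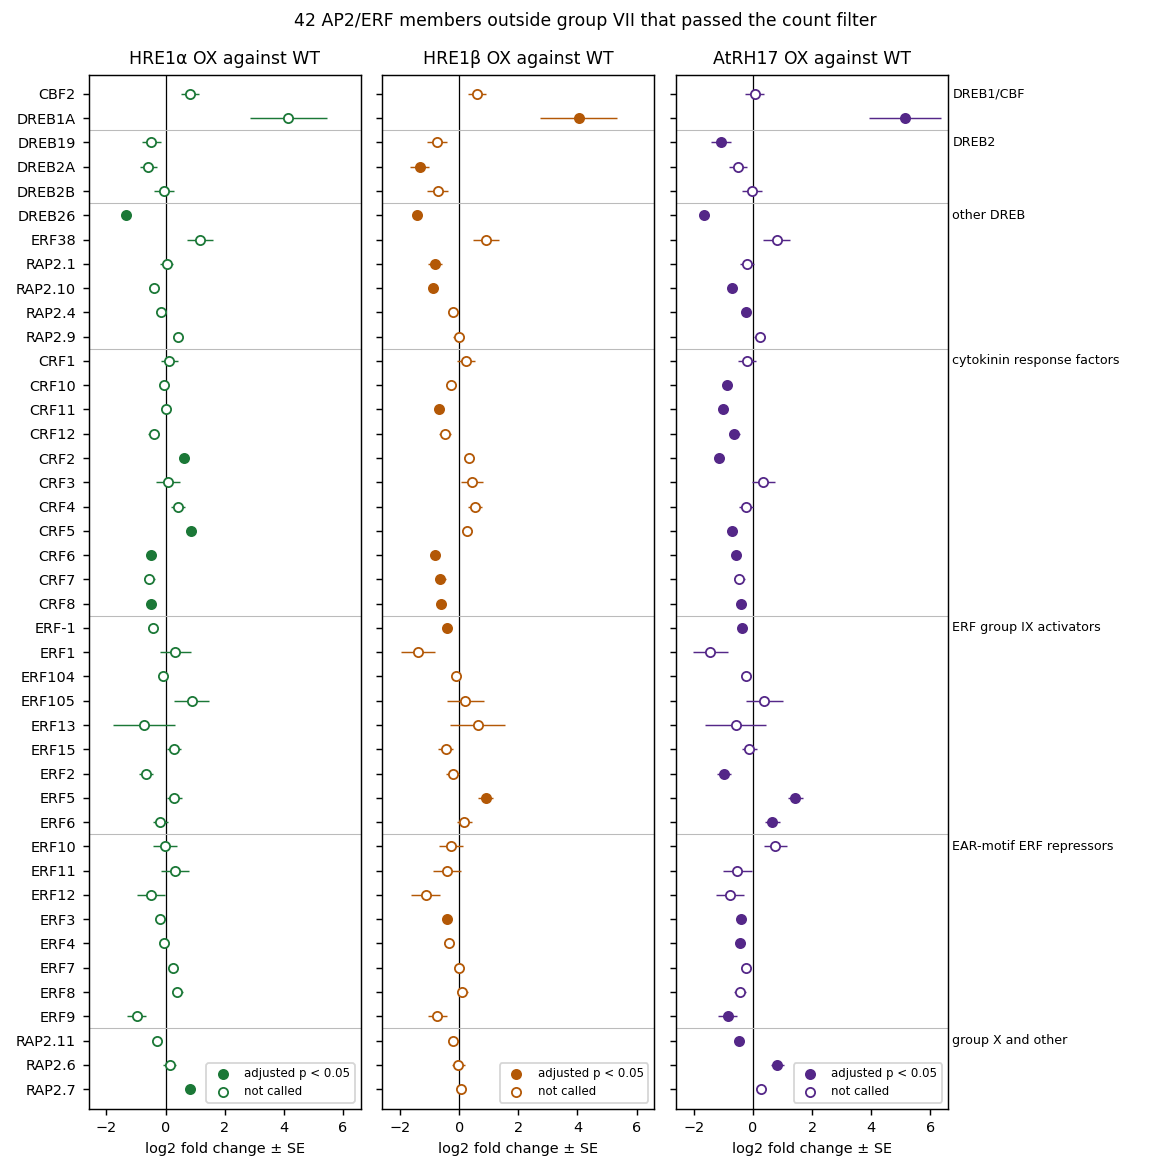
Log2 fold change against WT with its SE for each of the 42 tested members in HRE1α OX, HRE1β OX and AtRH17 OX (left to right), ordered by role. Filled points passed an adjusted p of 0.05. DREB26, CRF6 and CRF8 are filled on the left of 0 in all 3 panels, and most filled points of AtRH17 OX lie left of 0. The fitted value of DREB1A depends on a WT level of 0 and 1 counts.

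Only 3 members, DREB26, CRF6 and CRF8, were called against WT in all 3 lines, and all 3 were lower. DREB26 (AT1G21910), a DREB-type activator, had 14.5 and 14.6 CPM in HRE1α OXs, 12.3 and 14.8 CPM in labelled HRE1β OXs, 11.6 and 11.6 CPM in labelled AtRH17 OXs, and 34.3 and 38.4 CPM in WT. Every overexpressor library lay below both WT libraries. The log2 fold change was -1.32 ± 0.13 in HRE1α OXs (adjusted p = 4.66e-08), -1.42 ± 0.13 in labelled HRE1β OXs (adjusted p = 9.19e-10) and -1.65 ± 0.13 in labelled AtRH17 OXs (adjusted p = 4.04e-11, edgeR). The lines themselves were not called different from each other for this gene, with log2 fold changes of -0.10 to -0.33 between them. These 3 calls held when any library was left out.

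The DREB1/CBF genes activate cold-responsive genes, and CBF1, CBF2 and DREB1A (CBF3) lie in tandem on chromosome 4. DREB1A had 6 and 15 counts in HRE1α OXs, 6 and 15 counts in labelled HRE1β OXs, 16 and 24 counts in labelled AtRH17 OXs, and 0 and 1 count in WT. The ratio of the summed, depth-scaled counts to WT was 22.3 in HRE1α OXs (95% exact interval 3.59 to 924), 20.8 in labelled HRE1β OXs (3.35 to 861) and 43.3 in labelled AtRH17 OXs (7.34 to 1754), where the intervals cover counting error only. The gene was called higher in labelled HRE1β OXs (adjusted p = 0.0228) and labelled AtRH17 OXs (adjusted p = 0.0014), and not in HRE1α OXs (adjusted p = 0.0767). DREB1A passed the count filter only through overexpressor libraries, in which it was high. Its calls against WT depend on that selection and are given as a description. With the filter of at least 10 counts in every library it was not tested. The HRE1β OX call was lost without WT library 1 (fitted log2 fold change 3.23) and without HRE1β OX library 2 (3.38), and the AtRH17 OX call held without any library. CBF2, the neighbour 1774 bases away, had 3.40 and 4.07 CPM in HRE1α OXs, 2.36 and 3.99 CPM in labelled HRE1β OXs, 1.97 and 2.44 CPM in labelled AtRH17 OXs, and 1.95 and 2.26 CPM in WT, and was called in none of the 6 comparisons. The tandem genes are closely similar and reads aligned to several places were counted, so the split of reads among them is uncertain.

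The DREB2 factors respond to dehydration, salt and heat. DREB2A (AT5G05410) had 2.86 and 2.41 CPM in HRE1α OXs, 1.59 and 1.52 CPM in labelled HRE1β OXs, 2.32 and 3.25 CPM in labelled AtRH17 OXs, and 4.37 and 3.52 CPM in WT. All overexpressor libraries lay below WT, and the call was made for labelled HRE1β OXs only (-1.34 ± 0.31, adjusted p = 0.00172), with -0.58 in HRE1α OXs and -0.50 in labelled AtRH17 OXs. DREB19 (AT2G38340) had 3.02 and 1.84 CPM in HRE1α OXs, 1.74 and 2.24 CPM in labelled HRE1β OXs, 1.69 and 1.51 CPM in labelled AtRH17 OXs, and 2.99 and 3.76 CPM in WT. It was called lower in labelled AtRH17 OXs (-1.07 ± 0.34, adjusted p = 0.0157), a call lost without WT library 2 (-0.90), AtRH17 OX library 1 (-1.16) or AtRH17 OX library 2 (-0.99). DREB2B was called in no comparison. DREB2A and DREB19 both overlap a gene on the opposite strand, and it is not stated whether the counting used strand. The gene over DREB2A, AT5G05420, had 11 and 16 counts in HRE1α OXs, 7 and 6 in labelled HRE1β OXs, 13 and 15 in labelled AtRH17 OXs, and 57 and 41 in WT. The main gene over DREB19, AT2G38330, had 338 and 278 counts in labelled AtRH17 OXs and 484 and 719 in WT. These overlapping genes thus had fewer counts in the same libraries, and their reads cannot be told apart from those of DREB2A and DREB19.

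Among the other DREB members, RAP2.10 and RAP2.1 are small DREB proteins that carry a repression motif. RAP2.10 (AT4G36900) had 13.9 and 13.0 CPM in HRE1α OXs, 10.1 and 8.85 CPM in labelled HRE1β OXs, 10.5 and 10.9 CPM in labelled AtRH17 OXs, and 17.6 and 17.4 CPM in WT. It was lower in labelled HRE1β OXs (-0.88 ± 0.15, adjusted p = 3.1e-05) and in labelled AtRH17 OXs (-0.71 ± 0.15, adjusted p = 0.000334), with -0.38 in HRE1α OXs. It was lower in labelled HRE1β OXs than in HRE1α OXs (-0.51 ± 0.15, adjusted p = 0.0163), lost without either HRE1α OX library (-0.46 and -0.55) or HRE1β OX library 2 (-0.41). RAP2.1 was lower in labelled HRE1β OXs, at 3.51 and 4.08 CPM, than in HRE1α OXs, at 6.03 and 7.75 CPM (-0.86 ± 0.24, adjusted p = 0.0115), and than in WT, at 5.01 and 8.41 CPM (-0.82 ± 0.24, adjusted p = 0.0116). The RAP2.1 call against WT was lost without WT library 2 (-0.40) or HRE1β OX library 1 (-0.72), and that against HRE1α OXs without HRE1α OX library 2 (-0.66) or HRE1β OX library 1 (-0.76). RAP2.4, a DREB-type factor of ethylene and light responses, was lower in labelled AtRH17 OXs by a small margin (-0.22 ± 0.08, adjusted p = 0.04), and the call was lost whichever of the 8 libraries was left out (-0.28 to -0.15). RAP2.9 and ERF38 were not called.

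**Figure D3:**
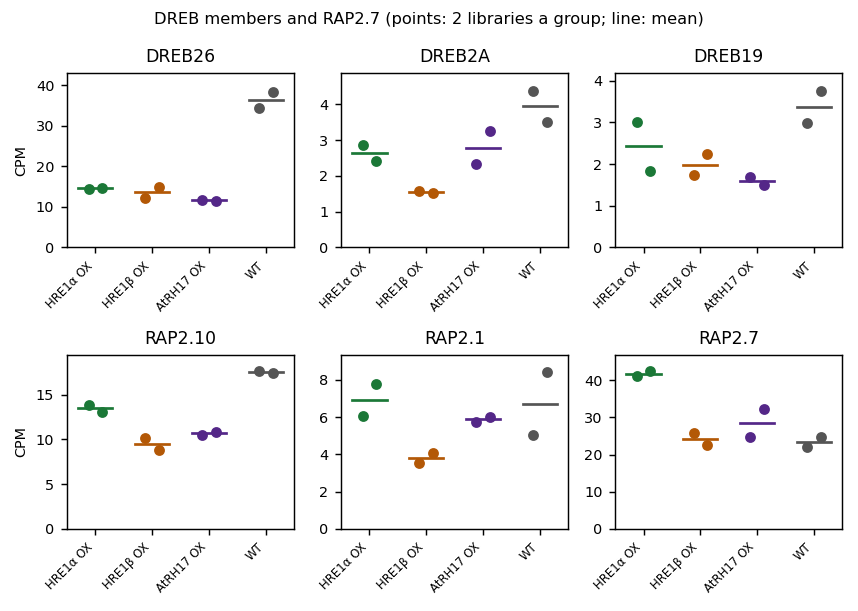
CPM in each library (points) and the group mean (line) for DREB26, DREB2A, DREB19, RAP2.10, RAP2.1 and RAP2.7, with HRE1α OX, HRE1β OX, AtRH17 OX and WT from left to right. DREB26 lies at 11.6 to 14.8 CPM in the 6 overexpressor libraries and at 34.3 and 38.4 CPM in WT, and RAP2.7 is highest in HRE1α OX.

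The cytokinin response factors held calls in each of the 6 comparisons. Of 12 CRFs, 11 were tested. In HRE1α OXs 2 were higher and 2 lower than in WT, in labelled HRE1β OXs 0 were higher and 4 lower, and in labelled AtRH17 OXs 0 were higher and 7 lower, with a median log2 fold change of 0.03, -0.28 and -0.57 over the 11 genes in that order. Of all genes tested, 1.57% were higher and 1.8% lower in HRE1α OXs, 11.2% higher and 11.6% lower in labelled HRE1β OXs, and 15.3% higher and 15.5% lower in labelled AtRH17 OXs. No CRF was higher in labelled HRE1β OXs or labelled AtRH17 OXs at the adjusted p of edgeR. The summed CRF level was 203 and 211 CPM in HRE1α OXs, 148 and 165 CPM in labelled HRE1β OXs, 126 and 120 CPM in labelled AtRH17 OXs, and 191 and 220 CPM in WT.

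CRF2 and CRF5, both known from the development of embryos, cotyledons and leaves, moved in opposite directions in HRE1α OXs and labelled AtRH17 OXs. CRF2 (AT4G23750, chr4:12376122-12378032) had 22.8 and 25.0 CPM in HRE1α OXs, 18.0 and 21.4 CPM in labelled HRE1β OXs, 7.71 and 6.14 CPM in labelled AtRH17 OXs, and 14.6 and 16.7 CPM in WT. The AtRH17 OX libraries were below and the HRE1α OX libraries above all WT libraries. It was higher in HRE1α OXs (0.61 ± 0.14, adjusted p = 0.00806), lower in labelled AtRH17 OXs (-1.17 ± 0.15, adjusted p = 4.66e-07), and at 0.34 in labelled HRE1β OXs without a call. The difference between labelled AtRH17 OXs and HRE1α OXs was called directly (-1.78 ± 0.15, adjusted p = 2.39e-10), as was that between labelled AtRH17 OXs and labelled HRE1β OXs (-1.50 ± 0.15, adjusted p = 2.54e-08). CRF5 (AT2G46310, chr2:19011462-19013018) had 22.3 and 24.5 CPM in HRE1α OXs, 11.9 and 18.7 CPM in labelled HRE1β OXs, 7.61 and 8.10 CPM in labelled AtRH17 OXs, and 11.7 and 14.1 CPM in WT. It was higher in HRE1α OXs (0.86 ± 0.17, adjusted p = 0.0021) and lower in labelled AtRH17 OXs (-0.72 ± 0.18, adjusted p = 0.00275), and labelled AtRH17 OXs were lower than HRE1α OXs (-1.58 ± 0.17, adjusted p = 1.51e-07) and labelled HRE1β OXs (-0.97 ± 0.18, adjusted p = 0.000469). Labelled HRE1β OXs were in turn lower than HRE1α OXs (-0.61 ± 0.16, adjusted p = 0.0104). The HRE1α OX rises were the less stable part. The CRF2 rise lost its call without WT library 1 (0.52), HRE1α OX library 1 (0.68) or HRE1α OX library 2 (0.54), and the CRF5 rise without HRE1α OX library 2 (0.79). The difference of CRF5 between labelled AtRH17 OXs and labelled HRE1β OXs was lost without HRE1β OX library 2 (-0.60), and that between labelled HRE1β OXs and HRE1α OXs without either HRE1α OX library (-0.68 and -0.54) or HRE1β OX library 1 (-0.32).

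CRF11 and CRF10 formed a second pattern, with the fall in labelled AtRH17 OXs and little difference in HRE1α OXs. CRF11 (AT3G25890) had 74.1 and 72.7 CPM in HRE1α OXs, 43.2 and 45.9 CPM in labelled HRE1β OXs, 37.7 and 33.8 CPM in labelled AtRH17 OXs, and 66.6 and 77.1 CPM in WT. It was lower than WT in labelled HRE1β OXs (-0.69 ± 0.10, adjusted p = 2.4e-06) and labelled AtRH17 OXs (-1.01 ± 0.10, adjusted p = 2.08e-09), and lower than in HRE1α OXs in both lines (-0.72 and -1.04). CRF10 (AT1G68550) had 22.9 and 24.9 CPM in HRE1α OXs, 18.3 and 22.0 CPM in labelled HRE1β OXs, 14.0 and 12.4 CPM in labelled AtRH17 OXs, and 22.0 and 27.1 CPM in WT. It was lower in labelled AtRH17 OXs than in WT (-0.89 ± 0.14, adjusted p = 6.14e-06) and than in HRE1α OXs (-0.85 ± 0.14, adjusted p = 1.89e-05). Both genes were also lower in labelled AtRH17 OXs than in labelled HRE1β OXs (log2 fold change of CRF11 -0.32 ± 0.10, adjusted p = 0.0274, and of CRF10 -0.61 ± 0.14, adjusted p = 0.00271). These 2 calls were lost without HRE1β OX library 2 (-0.28 and -0.47) or AtRH17 OX library 2 (-0.25 and -0.53), and that of CRF11 also without HRE1β OX library 1 (-0.36) or either HRE1α OX library (-0.32 each).

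CRF6 and CRF8 were lower in all 3 lines. CRF6 (AT3G61630), induced by cytokinin and oxidative stress and linked to the delay of leaf senescence, had 15.9 and 17.9 CPM in HRE1α OXs, 12.6 and 14.1 CPM in labelled HRE1β OXs, 16.6 and 15.3 CPM in labelled AtRH17 OXs, and 21.9 and 25.5 CPM in WT. Its window, shown above, is the only CRF window with a GCC core. The log2 fold change of CRF6 was -0.49 ± 0.13 in HRE1α OXs (adjusted p = 0.0337), -0.83 ± 0.13 in labelled HRE1β OXs (adjusted p = 2.47e-05) and -0.57 ± 0.13 in labelled AtRH17 OXs (adjusted p = 0.00136). CRF8 (AT1G71130) had 20.3 and 17.8 CPM in HRE1α OXs, 17.5 and 17.0 CPM in labelled HRE1β OXs, 21.1 and 19.1 CPM in labelled AtRH17 OXs, and 26.6 and 26.4 CPM in WT. Its log2 fold changes were -0.48 ± 0.12, -0.62 ± 0.12 and -0.40 ± 0.12 in the same order (adjusted p = 0.0223, 0.00032 and 0.0126). The HRE1α OX calls were lost for CRF6 without WT library 2 (-0.38), HRE1α OX library 1 (-0.40) or HRE1α OX library 2 (-0.58), and for CRF8 without WT library 1 (-0.47), HRE1α OX library 1 (-0.57) or HRE1α OX library 2 (-0.38). The CRF8 call in labelled AtRH17 OXs was lost without AtRH17 OX library 2 (-0.32).

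The remaining CRF calls were those of CRF7, CRF12 and CRF4. CRF7 was lower in labelled HRE1β OXs (-0.65 ± 0.19, adjusted p = 0.011), lost without HRE1β OX library 2 (-0.58). CRF12 was lower in labelled AtRH17 OXs (-0.63 ± 0.19, adjusted p = 0.013), lost without WT library 2 (-0.50) or AtRH17 OX library 1 (-0.42). CRF4 was lower in labelled AtRH17 OXs than in HRE1α OXs (-0.67 ± 0.25, adjusted p = 0.042) and labelled HRE1β OXs (-0.77 ± 0.24, adjusted p = 0.0324) but was not called against WT (-0.23). The first CRF4 call was lost without either library of HRE1α OX or of HRE1β OX or without AtRH17 OX library 1 (-0.74 to -0.46), and the second without either HRE1β OX library or AtRH17 OX library 1 (-0.86 to -0.55). CRF4 overlaps AT4G07925 on the opposite strand, which had 66 and 72 counts in labelled AtRH17 OXs, 94 and 159 in labelled HRE1β OXs, 123 and 111 in HRE1α OXs, and 97 and 62 in WT, and reads in the overlap cannot be told apart. CRF1 and CRF3 were called in no comparison.

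**Figure D4:**
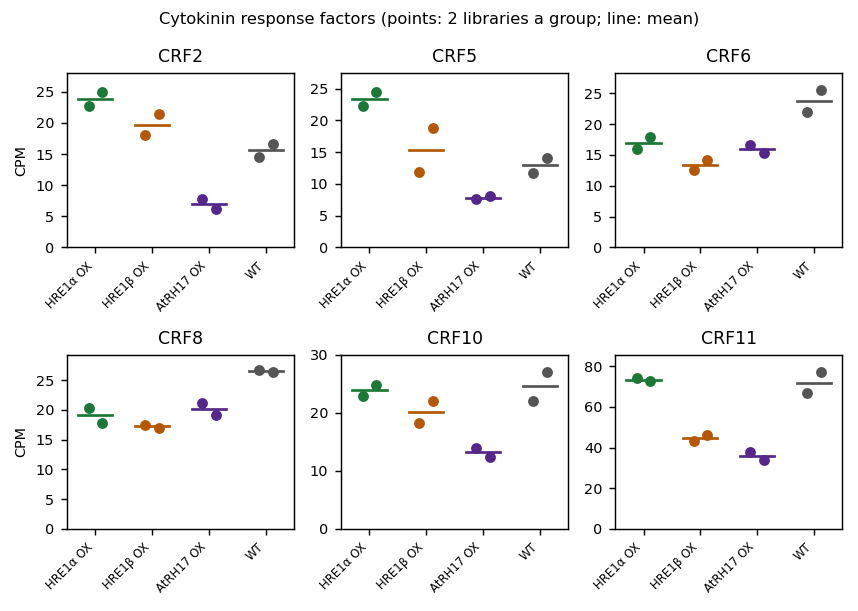
CPM in each library (points) and the group mean (line) for 6 cytokinin response factors, with HRE1α OX, HRE1β OX, AtRH17 OX and WT from left to right. CRF2 and CRF5 are highest in HRE1α OX and lowest in AtRH17 OX, CRF10 and CRF11 are lowest in AtRH17 OX, and CRF6 and CRF8 are below WT in all 3 lines.

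The group IX activators include the ethylene and jasmonate regulators of defence genes, of which 9 of 10 were tested. In HRE1α OXs 0 were called, in labelled HRE1β OXs 1 was higher and 1 lower (background 11.2% and 11.6%), and in labelled AtRH17 OXs 2 were higher and 2 lower (background 15.3% and 15.5%). With so few genes, these counts are near the share of all genes. The 4 calls in labelled AtRH17 OXs fell in 2 pairs of neighbouring genes. On chromosome 5, ERF2 (chr5:19171643-19172956, reverse strand) and ERF5 (chr5:19179881-19181182, forward strand) are transcribed away from each other with 6924 bases between them. ERF5, a target of stress-activated MAP kinases, had 4.54 and 2.45 CPM in HRE1α OXs, 5.06 and 5.41 CPM in labelled HRE1β OXs, 7.75 and 7.49 CPM in labelled AtRH17 OXs, and 3.02 and 2.63 CPM in WT. ERF2, an activator of jasmonate-responsive defence genes, had 3.97 and 5.01 CPM in HRE1α OXs, 5.21 and 7.03 CPM in labelled HRE1β OXs, 3.45 and 3.70 CPM in labelled AtRH17 OXs, and 7.57 and 6.66 CPM in WT. In labelled AtRH17 OXs ERF5 was higher (1.43 ± 0.26, adjusted p = 6.08e-05) and ERF2 lower (-0.99 ± 0.23, adjusted p = 0.00126), and both calls held without any library. ERF5 was also higher in labelled HRE1β OXs (0.89 ± 0.26, adjusted p = 0.0117), a call lost without WT library 2 (0.79) or HRE1β OX library 2 (0.85), and it was higher in labelled AtRH17 OXs than in HRE1α OXs (1.13 ± 0.25, adjusted p = 0.00113), lost without HRE1α OX library 2 (0.75). ERF2 was lower in labelled AtRH17 OXs than in labelled HRE1β OXs (-0.78 ± 0.23, adjusted p = 0.0223), lost without HRE1β OX library 2 (-0.55) or either AtRH17 OX library (-0.73 and -0.83).

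On chromosome 4, ERF6 (chr4:9752824-9754161, reverse strand) and ERF-1 (AT4G17500, also known as ERF1A, chr4:9759203-9760391, forward strand) form a like pair with 5041 bases between them. ERF6, the close relative of ERF5, had 3.13 and 3.93 CPM in HRE1α OXs, 3.47 and 5.44 CPM in labelled HRE1β OXs, 5.63 and 6.88 CPM in labelled AtRH17 OXs, and 3.91 and 4.07 CPM in WT. ERF-1, the close relative of ERF2, had 19.4 and 19.9 CPM in HRE1α OXs, 16.4 and 23.2 CPM in labelled HRE1β OXs, 20.8 and 20.1 CPM in labelled AtRH17 OXs, and 25.9 and 26.8 CPM in WT. ERF6 was higher in labelled AtRH17 OXs (0.65 ± 0.25, adjusted p = 0.0486) and ERF-1 lower in labelled AtRH17 OXs (-0.37 ± 0.13, adjusted p = 0.0366) and labelled HRE1β OXs (-0.41 ± 0.13, adjusted p = 0.0245). These calls lay near the threshold. ERF6 kept its call in the leave-out fits only without a HRE1β OX library (0.51 to 0.79 over the other fits), ERF-1 in labelled AtRH17 OXs only without WT library 1 or a HRE1β OX library (-0.39 to -0.33 over the others), and ERF-1 in labelled HRE1β OXs was lost without WT library 2 (-0.39) or HRE1β OX library 1 (-0.19). ERF6 was also higher in labelled AtRH17 OXs than in HRE1α OXs (0.82 ± 0.25, adjusted p = 0.0157), lost without HRE1α OX library 1 or AtRH17 OX library 2 (0.67 each).

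ERF1 (AT3G23240), a regulator where ethylene and jasmonate signals meet, was at low levels, with 1.49 and 1.69 CPM in HRE1α OXs, 0.259 and 0.680 CPM in labelled HRE1β OXs, 0.669 and 0.244 CPM in labelled AtRH17 OXs, and 1.03 and 1.50 CPM in WT. It was lower than in HRE1α OXs in labelled HRE1β OXs (-1.73 ± 0.57, adjusted p = 0.0343) and labelled AtRH17 OXs (-1.77 ± 0.58, adjusted p = 0.0231), and it was not called against WT in labelled HRE1β OXs (-1.41, adjusted p = 0.0788) or labelled AtRH17 OXs (-1.44, adjusted p = 0.0605). Both calls were lost without either HRE1α OX library, that of labelled HRE1β OXs also without HRE1β OX library 1 and that of labelled AtRH17 OXs also without AtRH17 OX library 2, at log2 fold changes of -1.86 to -1.22. ERF15 was lower in labelled HRE1β OXs than in HRE1α OXs (-0.75 ± 0.25, adjusted p = 0.0354), a call lost in 6 of the 8 leave-out fits (-0.94 to -0.52 in those 6). ERF13, ERF104 and ERF105 were not called.

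**Figure D5:**
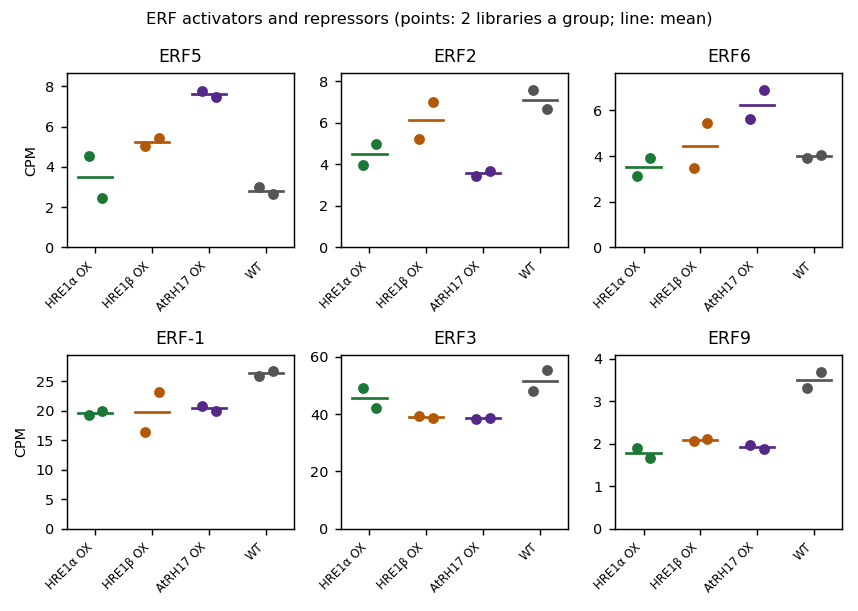
CPM in each library (points) and the group mean (line) for 4 activators in neighbouring pairs (ERF5 and ERF2, ERF6 and ERF-1) and 2 EAR-motif repressors (ERF3, ERF9), with HRE1α OX, HRE1β OX, AtRH17 OX and WT from left to right. In AtRH17 OX, ERF5 lies at 7.49 and 7.75 CPM, above WT, and ERF2 at 3.45 and 3.70 CPM, below WT.

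The EAR-motif repressors, ERF3, ERF4 and ERF7 to ERF12, counteract the activators at GCC-containing promoters. All 8 were tested, and 0, 1 and 3 were called lower in HRE1α OXs, labelled HRE1β OXs and labelled AtRH17 OXs, with none called higher against WT by edgeR. The share of all genes called lower was 1.8%, 11.6% and 15.5% in the same order, so that 1 of 8 in labelled HRE1β OXs is near the background. ERF3 (AT1G50640) had 48.9 and 42.1 CPM in HRE1α OXs, 39.3 and 38.7 CPM in labelled HRE1β OXs, 38.3 and 38.7 CPM in labelled AtRH17 OXs, and 48.0 and 55.3 CPM in WT. It was lower in labelled HRE1β OXs (-0.41 ± 0.10, adjusted p = 0.0036), lost without WT library 2 (-0.30), and in labelled AtRH17 OXs (-0.42 ± 0.10, adjusted p = 0.00189), which held without any library. In labelled AtRH17 OXs ERF9 was lower than WT (-0.86 ± 0.32, adjusted p = 0.0378), a call lost whichever library of these 2 groups was left out (-0.94 to -0.78), and ERF4 was lower (-0.44 ± 0.15, adjusted p = 0.0272), lost without WT library 2 (-0.19) or AtRH17 OX library 1 (-0.33). Against HRE1α OXs, labelled AtRH17 OXs had lower ERF8 (-0.84 ± 0.19, adjusted p = 0.00132), lost without HRE1α OX library 2 (-0.69), and lower ERF7 (-0.49 ± 0.11, adjusted p = 0.00103), which held without any library. ERF10, ERF11 and ERF12 were not called.

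The members outside these groups were RAP2.7, RAP2.6, RAP2.11 and the undetected ERF110 and ERF115. RAP2.7 (TOE1, AT2G28550), a floral repressor that microRNA172 targets, had 41.1 and 42.4 CPM in HRE1α OXs, 25.8 and 22.6 CPM in labelled HRE1β OXs, 24.8 and 32.2 CPM in labelled AtRH17 OXs, and 22.0 and 24.8 CPM in WT. HRE1α OXs stood above all other libraries. RAP2.7 was higher in HRE1α OXs than in WT (0.84 ± 0.12, adjusted p = 3.72e-05), and lower than in HRE1α OXs in labelled HRE1β OXs (-0.79 ± 0.12, adjusted p = 2.06e-05) and labelled AtRH17 OXs (-0.55 ± 0.12, adjusted p = 0.00084), the last lost without AtRH17 OX library 1 (-0.38). RAP2.6, a factor of abscisic acid and wound responses, had 7.92 and 10.3 CPM in labelled AtRH17 OXs, 5.12 and 6.16 CPM in HRE1α OXs, 5.58 and 4.44 CPM in labelled HRE1β OXs, and 5.90 and 4.34 CPM in WT. It was higher in labelled AtRH17 OXs than in WT (0.83 ± 0.22, adjusted p = 0.00402), than in HRE1α OXs (0.68 ± 0.22, adjusted p = 0.0191) and than in labelled HRE1β OXs (0.86 ± 0.22, adjusted p = 0.0074). These 3 calls were lost without AtRH17 OX library 2 (0.64, 0.49 and 0.66), the first also without WT library 2 (0.62), the second without either HRE1α OX library (0.56 and 0.83) and the third without HRE1β OX library 2 (0.70). RAP2.11, a regulator of the response to low potassium, was lower in labelled AtRH17 OXs (-0.48 ± 0.13, adjusted p = 0.00543), lost without WT library 1 (-0.29) or AtRH17 OX library 2 (-0.45). RAP2.11 overlaps AT5G19780 on the opposite strand, which had 2448 and 1974 counts in labelled AtRH17 OXs and 3602 and 4067 counts in WT.

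Some of the AP2/ERF genes that carry other names were taken as a further list of 46, of which 35 were tested. The members and this list together do not cover the whole AP2/ERF family. In HRE1α OXs 0 were higher and 5 lower, in labelled HRE1β OXs 2 were higher and 6 lower, and in labelled AtRH17 OXs 4 were higher and 8 lower, with medians of -0.08, -0.11 and -0.08. Among all genes tested, 1.57%, 11.2% and 15.3% were higher and 1.8%, 11.6% and 15.5% lower in the same order. The list as a whole was not tested. DEWAX (AT5G61590), a repressor of wax synthesis genes, was lower in all 3 lines (-0.99, -1.44 and -1.21), as was TEM1, a repressor of flowering (-0.78, -1.05 and -1.11). The repressors CEJ1 (1.30 and 1.14) and SNZ (1.01 and 1.36) were higher in labelled HRE1β OXs and labelled AtRH17 OXs.

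Genes that act before and after the AP2/ERF factors were listed as well, and their counts stand against the same shares of all genes as those of the CRFs. Of 11 ethylene receptor and signalling genes, 2 were lower in HRE1α OXs, 7 in labelled HRE1β OXs and 8 in labelled AtRH17 OXs, with medians of -0.19, -0.30 and -0.79 and none called higher by edgeR. The receptor gene ETR2 was lower in labelled AtRH17 OXs (-1.65), labelled HRE1β OXs (-1.27) and HRE1α OXs (-0.45), and the receptor gene ERS2 (-1.31) and EBF2 (-1.24), an F-box gene that targets EIN3 for degradation, were lower in labelled AtRH17 OXs. Of 4 tested GCC-box and defence targets, 2 were higher and 1 lower in HRE1α OXs, 2 higher and 0 lower in labelled HRE1β OXs, and 1 higher and 0 lower in labelled AtRH17 OXs. The higher calls in HRE1α OXs and labelled HRE1β OXs were of PDF1.2 and PDF1.3, which were at the floor in WT. Both genes passed the count filter only through overexpressor libraries, so these calls depend on that selection. PDF1.2 had 0 and 0 CPM in WT, 0.458 and 0.793 CPM in HRE1α OXs, and 0.259 and 1.46 CPM in labelled HRE1β OXs. The other tested targets, at higher levels, had mean CPM below WT in both groups. Of 9 tested CBF upstream regulators, 1 was higher in HRE1α OXs, 1 lower in labelled HRE1β OXs, and 2 higher and 2 lower in labelled AtRH17 OXs.

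Of 13 CBF and DREB2A regulon targets, 4 were higher in HRE1α OXs, 9 in labelled HRE1β OXs and 7 in labelled AtRH17 OXs, and 0, 0 and 2 were lower. The medians were 0.30, 0.46 and 0.51. Among all genes, 1.57%, 11.2% and 15.3% were higher and 1.8%, 11.6% and 15.5% lower in that order. KIN1, a small cold-induced protein gene, was higher in all 3 lines (1.27, 1.61 and 2.08), as was the dehydrin gene LTI30 (0.63, 1.57 and 1.81). KIN1 was low in WT, at 0.853 and 1.74 CPM. The next locus, KIN2, had 132 and 138 CPM in HRE1α OXs and 94.4 and 98.4 CPM in labelled HRE1β OXs. It had 81.0 and 76.8 CPM in labelled AtRH17 OXs and 85.8 and 83.2 CPM in WT. Reads aligned to several places were counted, and their part in the KIN1 change was not tested. LTI65 was higher in labelled HRE1β OXs (2.80) and labelled AtRH17 OXs (1.67), and the membrane protein gene COR413IM1 was lower in labelled AtRH17 OXs (-1.40). Several of these targets are also known from maturing seeds. The seed markers stood high in the HRE1β OX libraries alone, and their part in this count was not tested.

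Of 9 tested type-A response regulators, the early targets of cytokinin signalling, 4 were higher and 0 lower in HRE1α OXs, 1 higher and 1 lower in labelled HRE1β OXs, and 2 higher and 3 lower in labelled AtRH17 OXs. ARR15 was higher in HRE1α OXs (1.82) and labelled HRE1β OXs (1.30). Of 10 clock genes, 2 were higher and 0 lower in HRE1α OXs, 1 higher and 4 lower in labelled HRE1β OXs, and 4 higher and 2 lower in labelled AtRH17 OXs. PRR9, a repressor expressed in the morning, was higher in all 3 lines (3.08, 1.44 and 3.53). The time of day of harvest is not given in the sources used here, and the part of the clock genes in the levels of the DREB and ERF members was not tested. Of 11 tested touch and wound response genes, 0 were higher and 1 lower in HRE1α OXs, 3 higher and 1 lower in labelled HRE1β OXs, and 4 higher and 1 lower in labelled AtRH17 OXs, and RHL41, a zinc finger gene, was higher in labelled HRE1β OXs (1.77) and labelled AtRH17 OXs (1.70). The shares of all genes for these 3 lists were 1.57% higher and 1.8% lower in HRE1α OXs. They were 11.2% and 11.6% in labelled HRE1β OXs, and 15.3% and 15.5% in labelled AtRH17 OXs. In labelled HRE1β OXs, 1 of 9 or 1 of 11 genes is near these shares.

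The motif matches were counted among the called members. Of the 17 members lower in labelled AtRH17 OXs, 1 had a GCC core, 3 a DRE/CRT and 5 a G-box. Of the 10 lower in labelled HRE1β OXs, 1 had a GCC core, 2 a DRE/CRT and 2 a G-box. Over all 50 members the shares were 6.0%, 14.0% and 22.0%, and these counts lie near them. A link between motif and call was not tested. Of the 3 members with a GCC core, CRF6 was lower in all 3 lines, ERF15 was lower in labelled HRE1β OXs than in HRE1α OXs, and ERF11 was not called.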

How the data were processed

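RNA of whole seedlings was sequenced with QuantSeq, an oligo-dT method that counts transcripts by their 3′ ends. The authors aligned the reads with Bowtie2 (genome build TAIR10 per the submitters' processing notes), counted unique and multiple alignments per gene with Bedtools coverage, and deposited raw counts, 1 library per table. Tool versions and the use of strand are not given in the sources used here. The labels give an age of 14 days, while the methods of the study give a younger age.

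The 50 members and the other lists were chosen with earlier results of these data known. Gene names were matched to the TAIR10.1 annotation of RefSeq, where 32577 of 33028 names had 1 locus and all 50 members matched. Among the members, 8 overlap another gene.

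Genes were filtered with filterByExpr (22602 kept) and tested with the edgeR 4.0.16 quasi-likelihood F test (TMM factors, robust, all 8 libraries in 1 fit, two-sided) in R 4.3.3. A call is a Benjamini-Hochberg adjusted p below 0.05 over all genes tested. The SE was taken as the size of the log2 fold change over the root of the F statistic. CPM uses TMM library sizes. The floor is 3 counts, and the intervals of DREB1A (exact binomial, 95%) cover counting error only.

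Members past a 2-fold change with a call are given with the level in each library, other called members with fold changes, and listed genes are named only past both. Levels of other members, such as those shown beside sequences or neighbours, were added after the values were seen. Alternatives were upper-quartile factors, DESeq2 1.42.0, quantile normalization of log2(CPM + 1) with limma 3.58.1, no filter, at least 10 counts in every library, 2-group fits, omission of each library in turn, and the replicate number as a block. Library numbers do not pair samples. The test was tried on simulated data before use. Figures were drawn with matplotlib 3.10.9. SR1 of the CBF regulator list could not be matched to 1 locus, and protein motifs were not analysed here. The upstream sequence of 1 member is not reported here.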

Additional observations from a re-analysis of the deposited data

Results flagged for a closer look

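CRF2 and CRF5 were called in opposite directions against WT in 2 lines, and the lines differed in the direct test. CRF2 was lower in labelled AtRH17 OXs than in HRE1α OXs by a log2 fold change of -1.78 ± 0.15 (edgeR adjusted p = 2.39e-10), with -1.17 in labelled AtRH17 OXs and 0.61 in HRE1α OXs against WT. CRF5 was lower in labelled AtRH17 OXs than in HRE1α OXs by -1.58 ± 0.17 (edgeR adjusted p = 1.51e-07), with -0.72 in labelled AtRH17 OXs and 0.86 in HRE1α OXs against WT. Both direct differences held when any library was left out. With 2 libraries a group, single libraries could not be examined for outlying values.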

How the results depend on the processing

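The 6 comparisons held 65 calls of members, and 27 of them held in every fit in which they had a value. No call turned its direction in any fit. Upper-quartile factors, DESeq2 and quantile normalization with limma each ended 6 of the 65 calls, fits of only the 2 groups compared ended 7 of 64, and no filter (65) or at least 10 counts in every library (61) ended 0. The fit with the replicate number as a block kept all 65 calls, with counts of 3, 2 and 4 members higher and 3, 10 and 17 lower in HRE1α OXs, labelled HRE1β OXs and labelled AtRH17 OXs against WT. Deviations of same-numbered libraries correlated by -0.006 to 0.058, so the pairing has no basis in the data.

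With all 8 libraries or the 4 of the 2 groups kept, 5 counts of calls moved by over 1.5 times. Members lower in HRE1α OXs against WT numbered 1 in the fit of 2 groups. Members higher in labelled HRE1β OXs against WT numbered 1 with quantile normalization, with at least 10 counts and in the fit of 2 groups. Members higher in labelled AtRH17 OXs against labelled HRE1β OXs numbered 2 with quantile normalization. Calls ended by these fits include RAP2.4, ERF4, ERF9, ERF6 and ERF-1 in labelled AtRH17 OXs, ERF-1 and DREB1A in labelled HRE1β OXs, and CRF6 and CRF8 in HRE1α OXs, and the cause was not tested.

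Leaving out 1 library in turn gave 1 to 5 members higher and 1 to 3 lower in HRE1α OXs against WT, 0 to 3 higher and 9 to 13 lower in labelled HRE1β OXs, and 2 to 4 higher and 11 to 17 lower in labelled AtRH17 OXs. It gave 0 to 1 higher and 2 to 7 lower in labelled HRE1β OXs against HRE1α OXs, 1 to 3 higher and 6 to 11 lower in labelled AtRH17 OXs against HRE1α OXs, and 0 to 2 higher and 1 to 7 lower in labelled AtRH17 OXs against labelled HRE1β OXs. Such fits leave a group with 1 library, which is assumed to vary like the others. At levels near 1 CPM libraries of 1 group differed widely, as ERF1 at 0.259 and 0.680 CPM in labelled HRE1β OXs.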

Other observations

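Rap2.6L (AT5G13330), a relative of RAP2.6 that acts in wound healing, fell outside the naming rule. It had 11.9 and 14.2 CPM in HRE1α OXs, 14.4 and 13.6 CPM in labelled HRE1β OXs, 13.4 and 14.6 CPM in labelled AtRH17 OXs, and 11.3 and 14.1 CPM in WT, and it was called in none of the 6 comparisons.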
